A study of Mus musculus with 24 samples.

Results

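Granulocyte monocyte progenitors (GMP), from which neutrophils and monocytes arise, were compared between a fast and a slow cycling gate. The 8 GMP libraries, 5 fast and 3 slow, were taken by their sample labels out of the 24 mouse libraries of the study. GMP of both gates were cultured in serum-free X VIVO15 medium with stem cell factor at 100 ng/ml and with interleukin 3, Flt3 ligand and thrombopoietin at 50 ng/ml each. They carried CFSE, a dye that each cell division dilutes, for 24 hours before the sort. Each library came from the cytoplasmic RNA of 1000 cells sorted into a well, copied into cDNA with oligo-dT and then amplified. No factor induction is named for GMP, and the labels name no strain, age or genotype for them. The other 16 libraries were bulk mouse embryonic fibroblasts (MEF), fast and slow cycling MEF and induced pluripotent stem cells, 4 libraries each. The 8 gated MEF libraries enter one comparison here. Those fibroblasts had the Yamanaka factors induced with doxycycline for 6 days, in serum-containing medium with LIF, and were sorted after 48 hours of dye dilution. Whether the replicates of a gate were separate animals or cultures is not stated in the labels, so every p-value here rests on differences among libraries that may be technical.

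GMP stand at the branch where blood formation commits to the neutrophil and monocyte fates. Maturing neutrophils fill their granules in order: first the primary granules with myeloperoxidase and the serine proteases, then the specific and gelatinase granules, and finally they express the genes of the mobile, phagocytic cell. The transcription factors Cebpa, Sfpi1 (PU.1), Gfi1, Irf8 and Cebpe steer this course, and division usually stops before the late steps. A gate on dye dilution separates cells by the number of recent divisions, so the comparison asks which transcripts go with division rate in the progenitors.

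Each GMP library held 2098846 to 4411526 counts, and 9380 to 18402 genes had a count. Genes with a count numbered 18402, 13904, 11556, 10494 and 9380 in fast replicates 1 to 5, and 12526, 13168 and 14168 in slow replicates 1 to 3. No difference between the gates passed the test in total counts (exact permutation test over libraries, two-sided, p = 0.929), in the number of genes with a count (p = 0.786) or in the share of counts in Rn45s, a ribosomal RNA gene, and Lars2 (p = 0.929). This share was 19.9% to 48.9% in fast and 20.5% to 40.6% in slow libraries. The share of the 10 most abundant genes gave p = 1.0 in the same exact permutation test, and all 4 measures had an adjusted p of 1.0 (Benjamini-Hochberg). With 5 against 3 libraries this exact test cannot go below p = 0.0357.

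The replicates of both gates differed widely from each other. The common biological coefficient of variation, edgeR's estimate of the relative spread of a gene between replicates beyond counting error, was 1.25 in fast and 1.21 in slow GMP. It was 0.50 to 0.58 in the 4 other groups. Thinning every library to the smallest total left it at 1.24 and 1.20 in GMP, against 0.48 to 0.56 elsewhere. Pearson correlations of log2 CPM (counts scaled to library size) between libraries ran from 0.495 to 0.704 over the 10 pairs of fast libraries, with a median of 0.63. Over the 3 pairs of slow libraries they ran from 0.504 to 0.555, with a median of 0.552. The 15 pairs of a fast and a slow library ran from 0.508 to 0.695, with a median of 0.55. Slow replicate 2 correlated with fast replicates 2 to 5 (0.695, 0.668, 0.657 and 0.607) more than with slow replicates 1 and 3 (0.552 and 0.555). Its correlation with fast replicate 1 was 0.55. Of the 10057 genes tested, 2961 (29.4%) had over 50% of their summed CPM in 1 of the 8 libraries.

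**Figure D1:**
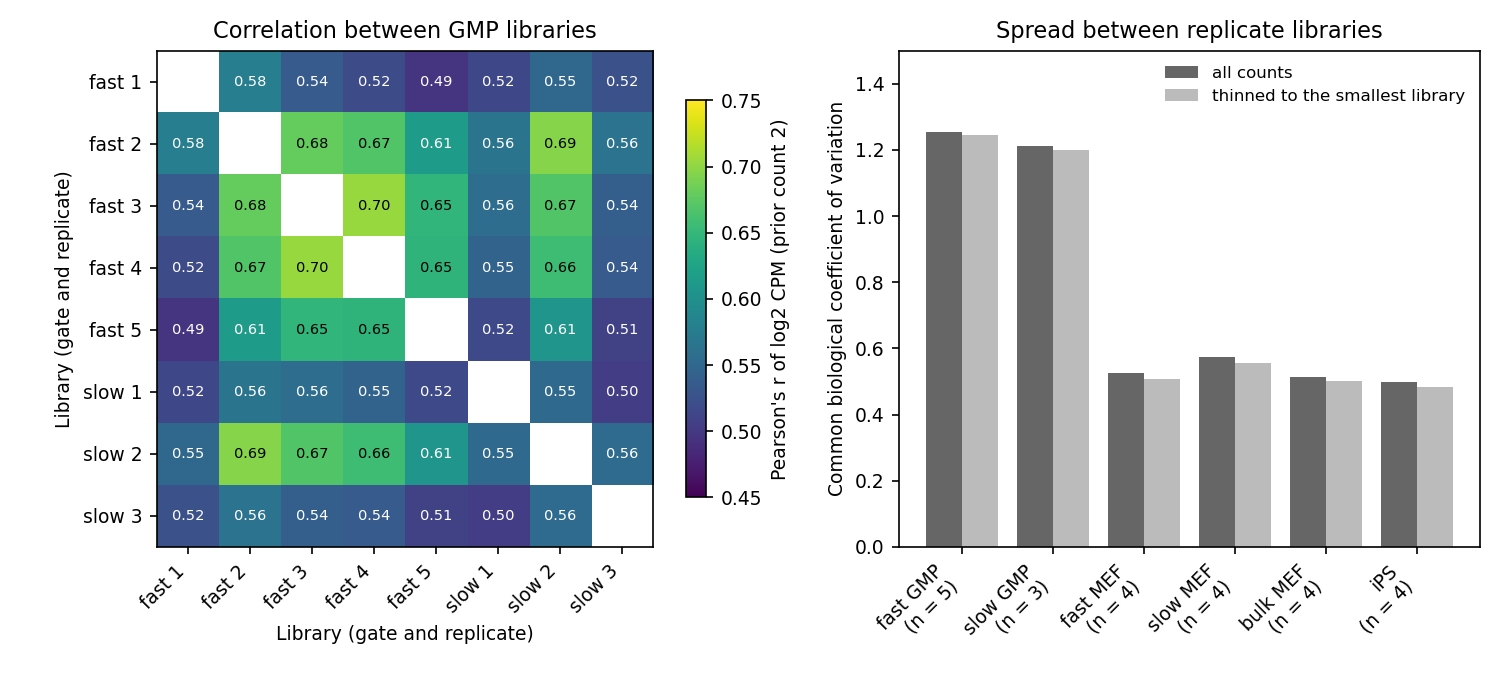
Left, Pearson's r of log2 CPM between every pair of GMP libraries, labelled by gate and replicate on both axes; right, the common biological coefficient of variation (no unit) of each group of the study from all counts (dark bars) and from counts thinned to the smallest library (light bars). The 2 GMP groups stand at 1.25 and 1.21, above the 0.50 to 0.58 of the other groups, and pairs within a gate are not set apart from pairs across gates.

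No gene passed the threshold between the gates. With edgeR's quasi-likelihood test and Benjamini-Hochberg adjustment, 0 of 10057 genes were called higher and 0 lower in fast GMP at an adjusted p of 0.05 (0% in each direction), and the smallest adjusted p was 0.662. At an unadjusted p under 0.05, 362 genes (3.6%) stood higher and 380 (3.78%) lower in fast GMP. All fast libraries were above all slow ones in 176 genes (1.75%), and all were below in 183 (1.82%). The fitted log2 fold change, given throughout as fast against slow, was above 0 in 53.1% of the genes and had a median of 0.12. DESeq2's Wald test called 72 genes higher (0.959% of the 7509 with an adjusted p) and 25 lower (0.333%). An edgeR fit with all 24 libraries called 173 higher (1.09% of 15813) and 212 lower (1.34%), with 1 estimate of the spread for all 6 groups. limma voom with quality weights called 0, with 141 genes higher and 241 lower at an unadjusted p under 0.05. The median gene had a standard error of 1.28 and a 95% confidence interval reaching 2.77 either way on the log2 scale, a factor of 6.84. In 274 genes the interval lay within 4-fold either way, and in 0 genes within 2-fold.

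S100a9, a calcium-binding protein that neutrophils and monocytes accumulate as they mature, was among the genes that came closest to the threshold. It stood at 46.4, 21.0, 19.0, 6.36 and 18.6 CPM in fast replicates 1 to 5 and at 0.284, 0.23 and 0.718 CPM in slow replicates 1 to 3. All fast libraries were above all slow ones, with a log2 fold change of 5.68 ± 1.37 (SE; edgeR unadjusted p = 0.00123, adjusted p = 0.662). S100a8, whose product forms a dimer with that of S100a9, did not share this pattern. It stood at 10.6, 12.3, 1.73, 8.91 and 11.4 CPM in fast and at 16.5, 1.38 and 0 CPM in slow GMP. The groups overlapped, since slow replicate 1 was above every fast library, and the log2 fold change was 0.59 ± 1.45 (adjusted p = 0.942). Without slow replicate 1 the S100a8 value was 3.56, and without slow replicate 3 it was 0.0043.

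Lyn, a Src-family kinase that acts below cytokine and immune receptors in myeloid cells, led the genes on the slow side with evenly low fast libraries. Its values were 24.7, 22.1, 13.1, 17.2 and 6.00 CPM in fast and 617, 55.3 and 196 CPM in slow GMP. Every slow library was above every fast one, by a log2 fold change of -4.12 ± 0.92 (edgeR unadjusted p = 0.000723, adjusted p = 0.662), and of -2.88 without slow replicate 1. S1pr2, a receptor for sphingosine 1-phosphate, stood at 3.60 to 26.6 CPM in fast and at 226, 47.7 and 89.0 CPM in slow GMP (log2 -3.44 ± 0.96). Zfp703, a zinc finger repressor, stood at 11.1 to 205 CPM in fast and at 460, 4614 and 656 CPM in slow GMP (log2 -3.94 ± 1.01). The groups did not overlap for either gene, but slow replicate 2 alone held the extreme Zfp703 value, and the log2 fold change without it was -2.13. Hectd3, a ubiquitin ligase, Amz2, a metalloprotease, and Fbxo22, an F-box protein, were likewise below every slow library in fast GMP, with slow replicate 1 highest in each. Their slow values were 418, 21.6 and 56.7 CPM for Hectd3, 289, 29.0 and 7.54 CPM for Amz2, and 345, 43.5 and 33.0 CPM for Fbxo22, while no fast library exceeded 17.7 CPM. Ppp2r2b, a regulatory subunit of protein phosphatase 2A, had the most even slow values, 19.3, 52.3 and 31.9 CPM, against 0 to 1.68 CPM in fast GMP (log2 -5.31 ± 1.31, adjusted p = 0.662). Pnldc1, an RNA exonuclease, stood at 1256 CPM in slow replicate 1 and at 0 to 3.46 CPM in the other 7 libraries, so its log2 fold change of -10.20 moved to -3.14 without that library.

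On the fast side, Pik3r2, a regulatory subunit of phosphoinositide 3-kinase that carries signals from Kit and other receptors, stood at 32.8, 23.2, 63.9, 31.8 and 70.8 CPM in fast and at 1.42, 0 and 1.44 CPM in slow GMP. Its log2 fold change was 5.52 ± 1.39 (unadjusted p = 0.00173, adjusted p = 0.662, edgeR), and it stayed between 4.96 and 5.99 with each library left out. Chd3, a chromatin remodeller of the NuRD complex, stood at 54.9, 88.4, 351, 577 and 453 CPM in fast and at 4.26, 18.9 and 9.33 CPM in slow GMP. Every fast library was above every slow one for both genes, and the log2 fold change of Chd3 was 4.81 ± 1.16. Ndufa2, a subunit of mitochondrial complex I, stood at 59.2 to 555 CPM against 10.5 to 19.7 CPM (log2 4.06 ± 1.08). Rai12 stood at 11.4 to 77.6 CPM against 1.08 to 2.53 CPM (log2 4.40 ± 1.16). Stx18, a syntaxin of the endoplasmic reticulum, Abcd4, a transporter of the ABC family, and Arl10, a small GTPase, varied more among the fast libraries, with ranges of 5.09 to 264, 15.1 to 895 and 1.18 to 82.2 CPM, and stood at 3.23 CPM or less in every slow library. Without fast replicate 3, which held the highest Abcd4 and Stx18 values, their log2 fold changes were 4.62 and 4.84 in place of 6.91 and 6.23. All 8 of these fast-side genes, S100a9 included, were called by both DESeq2 and the fit with all 24 libraries, as were 5 of the 8 slow-side genes (not Fbxo22, Pnldc1 or Ppp2r2b). The genes had been picked for their small p in the same GMP libraries, so these calls are not separate support. The 2 fits shared 82 calls among the 10057 genes tested, all with an unadjusted p under 0.05 in the main edgeR fit. Of these, 34 genes were above and 12 below without overlap of the gates, against 1.75% and 1.82% of all genes.

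**Figure D2:**
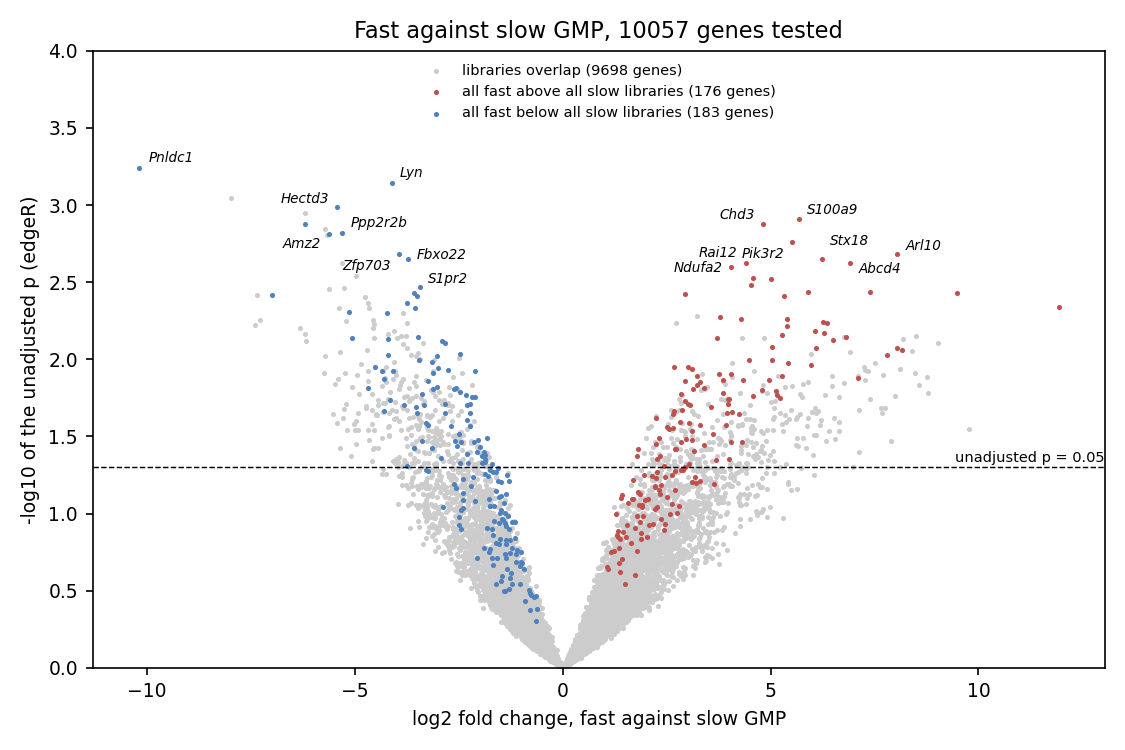
Each point is 1 of the 10057 genes tested, with the log2 fold change of fast against slow GMP on the x axis and -log10 of edgeR's unadjusted p on the y axis. Red and blue mark the 176 and 183 genes whose fast libraries all lie above or all below the slow ones, the 16 named genes are those of smallest p among them with a mean of at least 20 CPM in the higher group, and no gene reaches an adjusted p of 0.05.

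Primary granule genes mark GMP, and 14 of the 15 on the list had counts in every library of both gates. Of the 15, all tested, none passed the threshold, 6 had a log2 fold change above 0 and 9 below, and the median was -0.39 against 0.12 over all genes. Leaving out slow replicate 2 turned that median to 0.21. Mpo, myeloperoxidase, stood at 2767, 4140, 12051, 14038 and 16104 CPM in fast and at 9974, 4513 and 7112 CPM in slow GMP (log2 0.45 ± 0.68, 0.20 without fast replicate 5, adjusted p = 0.889). Fast replicates 1 and 2 were below all slow libraries and fast replicates 3 to 5 above them. Mpo thus rose over the fast replicates in the order in which the number of genes with a count fell. Elane, neutrophil elastase, overlapped likewise, at 473, 855, 1227, 1570 and 832 CPM against 747, 765 and 394 CPM (log2 0.64 ± 0.66, 0.40 without slow replicate 3). Prtn3, proteinase 3, was at 309 to 1417 CPM against 443 to 626 CPM (log2 0.51 ± 0.68, 0.18 without fast replicate 5), and Ctsg, cathepsin G, at 149 to 1168 CPM against 207 to 612 CPM (log2 0.49 ± 0.84). The Ctsg value was -0.11 without fast replicate 4. The 4 protease and peroxidase genes thus had small positive fold changes with intervals that reached well below 0.

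The gates did not overlap for 2 of the 15 genes, both lower in fast GMP, against 1.82% of all genes. Ms4a3, a membrane protein of GMP, was at 470, 374, 492, 243 and 408 CPM in fast and at 1395, 1028 and 498 CPM in slow GMP (log2 -1.29 ± 0.63, unadjusted p = 0.0618, adjusted p = 0.674 in edgeR). Slow replicate 3 was only just above the highest fast library. Plac8, a small cysteine-rich protein of early myeloid cells, stood at 74.7, 104, 96.5, 112 and 72.6 CPM in fast and at 193, 219 and 203 CPM in slow GMP. The values of each gate lay close together and did not overlap. The log2 fold change of Plac8 was -1.15 ± 0.68 (adjusted p = 0.705).

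Later granule genes were low and patchy. Of the 18 genes of specific and gelatinase granules, 12 were tested, none passed the threshold, and 5 had fold changes above 0 and 7 below, with a median of -0.49 (0.08 without slow replicate 1). Camp, the cathelicidin of specific granules, had 5.42, 38.9, 0.247, 0.636 and 6.60 CPM in fast GMP and 0 counts in all 3 slow libraries. With 3 counts over the slow group as the floor, its 176 counts in fast GMP were at least 37.5-fold higher in CPM, a bound that covers counting error only. Fast replicate 2 held most of these counts, and without it the bound was at least 10.0-fold. Its unadjusted p was 0.00867 and its adjusted p 0.662 (edgeR). Ltf, lactoferrin of the same granules, was highest in slow replicate 1, with 71.3, 2.99 and 0.718 CPM in slow GMP. Fast replicate 1 had 10.1 CPM and the other fast libraries 0 to 0.318 CPM. Its log2 fold change of -3.52 ± 1.90 became 0.08 without slow replicate 1. Ngp, neutrophilic granule protein, stood at 83.7 CPM in fast replicate 4 and at 0 to 7.10 CPM in all other GMP libraries. Cyba, a subunit of the NADPH oxidase that makes superoxide, was at 1649 to 4536 CPM in fast and at 14372, 3265 and 2447 CPM in slow GMP, and its log2 fold change of -1.17 ± 0.68 became 0.07 without slow replicate 1.

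Genes of late neutrophils showed no common direction. Of 29 list members 28 were matched and 19 tested, with 12 fold changes above 0 and 7 below and a median of 0.19 (-0.07 without fast replicate 5). S100a9 was the member with an unadjusted p under 0.05. Padi4, the enzyme that citrullinates histones in neutrophils, stood at 166 CPM in fast replicate 5 and at 0.559 to 5.30 CPM in the other 7 libraries, so its log2 fold change of 3.32 ± 1.88 became -0.49 without that library. Csf3r, the receptor of granulocyte colony-stimulating factor, stood at 133, 185, 41.5, 20.4 and 16.2 CPM in fast and at 433, 87.1 and 17.2 CPM in slow GMP. The ranges overlapped almost wholly, and its log2 fold change of -1.18 ± 1.10 was 0.59 without slow replicate 1. Itgb2, the beta-2 integrin chain, was at 26.4 to 377 CPM in fast and at 8.80 to 79.0 CPM in slow GMP (log2 1.60 ± 1.15, 1.0 without fast replicate 5). The stefin genes Stfa1, Stfa2 and Stfa3, which mature neutrophils express, were listed at 0 in all 8 libraries. These genes are close copies, and how reads matching several genes were counted is not given, so the 0 counts need not mean absence.

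**Figure D3:**
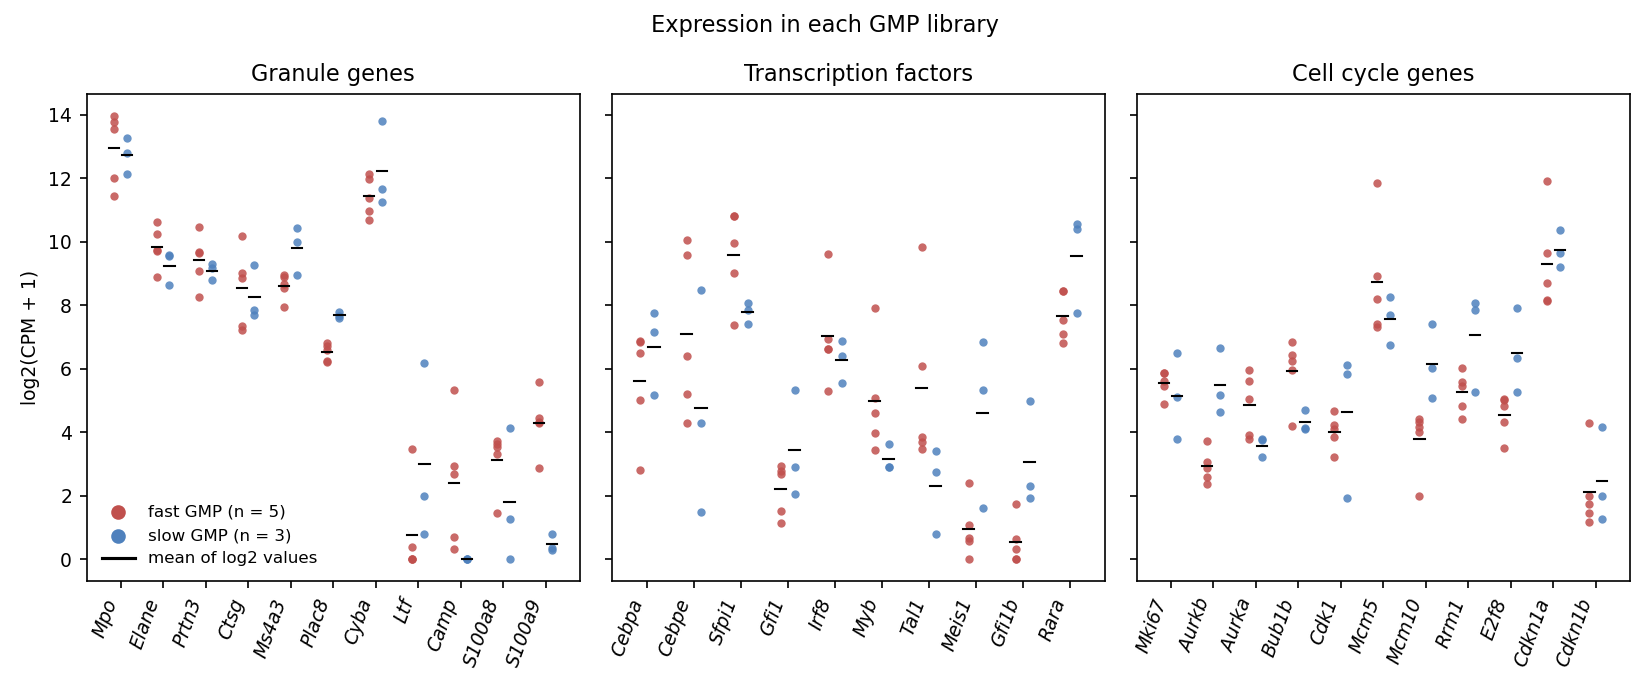
Points give log2(CPM + 1) of each fast (red, n = 5) and slow (blue, n = 3) GMP library for granule genes, transcription factors and cell cycle genes, and bars give the mean of the log2 values. S100a9, Camp and Tal1 lie above the slow libraries in every fast library, Ms4a3, Plac8, Gfi1b, Mcm10, Aurkb and E2f8 lie below them, and the other genes shown overlap between the gates.

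Monocyte and macrophage genes had a median log2 fold change of 0.52 over 23 tested members, 15 above 0 and 8 below, and it stayed between 0.27 and 0.87 with each library left out. The median was 0.10 with the replicate number as a block. None passed the threshold. Their summed level was 2018, 3621, 3845, 5161 and 6306 CPM in fast and 3478, 2451 and 2201 CPM in slow GMP. Within each gate this order was the reverse of that of the number of genes with a count. The part of this in the fold changes was not tested. Cd14, the lipopolysaccharide co-receptor, was at 120, 7.83, 86.4, 41.7 and 22.2 CPM in fast and at 10.2, 8.06 and 19.4 CPM in slow GMP (log2 2.15 ± 1.08). Mpeg1, a pore-forming protein of phagocytes, went the other way without overlap, at 8.25, 6.71, 7.89, 8.91 and 6.60 CPM in fast and at 26.4, 19.6 and 62.8 CPM in slow GMP (log2 -2.23 ± 0.89, unadjusted p = 0.027, adjusted p = 0.662). Csf1r, the receptor that drives monocyte survival, overlapped at 38.4 to 206 CPM against 53.4 to 121 CPM (log2 0.80 ± 0.85). Among 10 tested genes of antigen presentation and dendritic cells, 4 fold changes were above 0 and 6 below. The class II genes H2-Ab1 and H2-Aa had log2 fold changes of 1.30 ± 0.73 (0.75 without fast replicate 3) and -0.99 ± 0.87, and the H2-Aa value was 0.87 without slow replicate 1, which held 1827 CPM against 155 to 637 CPM elsewhere. Since these are bulk libraries, fewer cells of a type and less RNA per cell cannot be told apart.

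Stem and early progenitor genes split by library more than by gate. Of 34 members, 22 were tested, 13 with a fold change above 0 and 9 below, and the median of 0.30 became -0.27 without fast replicate 5. Their summed level was 2733 CPM in fast replicate 5 and 260 to 531 CPM in the other 7 libraries. Tal1, a factor of stem and erythroid-megakaryocytic cells, stood at 66.7, 12, 13.3, 10.2 and 910 CPM in fast and at 5.68, 9.67 and 0.718 CPM in slow GMP (log2 5.22 ± 1.91, unadjusted p = 0.0179, adjusted p = 0.662 in edgeR, and 2.25 without fast replicate 5). Kit, the receptor for stem cell factor, was at 298 CPM in fast replicate 5 and at 1.27 to 35.8 CPM in the other 7 libraries, and its log2 fold change of 2.21 ± 1.57 became -0.10 without it. Myb, which keeps progenitors immature, was at 238 CPM in the same library and at 6.46 to 32.7 CPM in the others (log2 2.97 ± 1.29, 1.31 without fast replicate 5). Meis1, the homeobox partner of stem cell Hox proteins, had the opposite order, at 0 to 4.24 CPM in fast and at 39.2, 2.07 and 115 CPM in slow GMP (log2 -5.26 ± 1.46, unadjusted p = 0.00343, adjusted p = 0.662). The gates overlapped for Meis1 because slow replicate 2 was below fast replicate 1. Gfi1b, a repressor of the erythroid and megakaryocytic branch, was at 0 to 2.36 CPM in fast and at 2.84, 30.6 and 3.95 CPM in slow GMP, without overlap (log2 -4.16 ± 1.53, -2.31 without slow replicate 2). Cd34, an antigen used to sort progenitors, was at 119 CPM in slow replicate 2 and at 3.69 to 26.0 CPM in the rest, so its log2 fold change of -1.51 ± 1.05 became 0.80 without that library. Flt3, the receptor for Flt3 ligand, was too low to be tested, at 0 to 16.5 CPM.

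Transcription factors of the myeloid programme had 21 fold changes above 0 and 10 below among 31 tested, with a median of 0.47 that stayed between 0.14 and 0.67 with each library left out. The median was 0.098 with the replicate number as a block. Their summed level was 1535, 2728, 4947, 6093 and 7595 CPM in fast and 3867, 2313 and 3175 CPM in slow GMP. Within the fast gate, but not the slow one, this order was the reverse of that of the number of genes with a count. Sfpi1, which encodes PU.1, stood at 167, 516, 990, 1818 and 1782 CPM in fast and at 170, 229 and 268 CPM in slow GMP. Fast replicate 1 was below every slow library and the other 4 fast libraries were above all slow ones (log2 2.25 ± 0.87, unadjusted p = 0.0232, adjusted p = 0.662, edgeR). Elf1, another Ets factor, was at 44.1, 92.9, 266, 387 and 733 CPM against 19.3, 79.5 and 84.0 CPM (log2 2.32 ± 1.05). Rara, the retinoic acid receptor of neutrophil maturation, was at 112, 186, 348, 348 and 136 CPM in fast and at 1349, 213 and 1494 CPM in slow GMP (log2 -2.17 ± 0.77, unadjusted p = 0.0146, adjusted p = 0.662). Slow replicate 2 lay within the fast range. Cebpa, which founds the GMP stage, was at 6.00 to 116 CPM against 34.8 to 215 CPM (log2 -0.87 ± 0.99, -0.27 without slow replicate 1). Cebpe, which governs specific granule genes, spanned 18.6 to 1069 CPM in fast and 1.79 to 357 CPM in slow GMP (log2 1.65 ± 1.61, 0.86 without fast replicate 4). Gfi1, the repressor that favours neutrophils, was at 1.20 to 6.66 CPM against 3.12 to 39.4 CPM (log2 -1.94 ± 1.17, -0.12 without slow replicate 2), and Irf8, which favours monocytes, at 38.4 to 776 CPM against 45.9 to 117 CPM (log2 1.46 ± 1.05, 0.12 without fast replicate 5). Cebpa, Cebpe, Gfi1 and Irf8 overlapped between the gates. Myc, which drives growth, was at 8.40 to 113 CPM against 9.37 to 45.6 CPM (log2 0.65 ± 1.0, and -0.04 without fast replicate 3).

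Receptors for cytokines had a median of 0.04 over 26 tested members, 14 above 0 and 12 below, and -0.09 without fast replicate 5. Tgfbr2, a receptor chain for TGF-beta, was at 354 CPM in fast replicate 5, at 0.74 to 13 CPM in the other fast libraries and at 0 to 1.79 CPM in slow GMP (log2 6.77 ± 2.37, unadjusted p = 0.0142, adjusted p = 0.662 in edgeR, and 3.20 without fast replicate 5). Csf2ra, the receptor chain for GM-CSF, was at 71.9 to 430 CPM against 54.8 to 140 CPM (log2 1.40 ± 0.82). Il3ra, the receptor chain for the interleukin 3 of the medium, was at 665 CPM in fast replicate 3 and at 12.3 to 124 CPM in the other 7 libraries (log2 2.29 ± 1.37, 0.43 without fast replicate 3). Cxcr4, which holds progenitors in the marrow, and Tnfrsf1b, a receptor for tumour necrosis factor, stood at 30.0 to 96.1 and 186 to 913 CPM in fast against 86.1 to 410 and 473 to 1257 CPM in slow GMP (log2 -1.78 ± 0.83 and -1.32 ± 0.72, and -0.63 for Cxcr4 without slow replicate 1). Cytokine targets that act downstream of Stat5 had a median of 0.47 over 21 tested members, with 12 above 0 and 9 below. Ccnd2, cyclin D2, was at 169 to 655 CPM against 57.7 to 299 CPM (log2 1.24 ± 0.81). The survival genes Bcl2l1 and Mcl1 had log2 fold changes of 1.90 ± 1.28 and -1.52 ± 0.93, which were 0.93 without fast replicate 3 and -0.55 without slow replicate 1. No member of either list passed the threshold.

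Cell cycle genes gave no common direction between the gates, and none passed the threshold. The 35 tested S phase genes had 19 fold changes above 0 and 16 below with a median of 0.15 (-0.17 without fast replicate 4), and the 31 genes of G2 and mitosis had 14 above and 17 below with a median of -0.06 (0.12 without slow replicate 3). Mki67, the proliferation antigen, was at 28.8, 47.8, 57.5, 57.9 and 42.6 CPM in fast and at 12.8, 89.4 and 33.4 CPM in slow GMP. The slow libraries spanned more than the whole fast range, and the log2 fold change was 0.05 ± 0.87, with a 95% interval from -1.83 to 1.94. It was -0.0052 with upper-quartile factors, and it ran from -0.38 without slow replicate 1 to 1.07 without slow replicate 2. Cdk1, the mitotic kinase, was at 8.40 to 24.5 CPM against 2.84, 56.2 and 68.9 CPM (log2 -1.41 ± 1.0, -0.88 without slow replicate 3).

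Over the 35 S phase genes, the 31 genes of G2 and mitosis and 22 genes of G1 cyclins and E2f factors, the gates did not overlap for 5, all lower in fast GMP (Mcm10, Rrm2, Slbp, Aurkb and E2f8), against 1.82% lower and 1.75% higher among all genes. Aurkb, the kinase of the chromosomal passenger complex, was at 6.36, 5.04, 12.3, 7.32 and 4.20 CPM in fast and at 98.8, 35.5 and 24.0 CPM in slow GMP (log2 -2.89 ± 0.91, unadjusted p = 0.0076, adjusted p = 0.662 in edgeR). Mcm10, which starts replication forks, was at 20.3, 17.1, 19.0, 15.0 and 3.00 CPM in fast and at 32.7, 64.0 and 168 CPM in slow GMP (log2 -2.56 ± 0.91, -1.70 without slow replicate 3, unadjusted p = 0.0153). E2f8, a repressor of the E2F programme, was at 10.4 to 32.2 CPM against 241, 79.9 and 37.3 CPM (log2 -2.31 ± 0.87, -1.27 without slow replicate 1, unadjusted p = 0.0197). Aurkb, Mcm10 and E2f8 had adjusted p-values of 0.662. Rrm1, a subunit of ribonucleotide reductase, was at 20.4 to 64.6 CPM against 270, 229 and 37.7 CPM and overlapped (log2 -2.14 ± 0.84). In the other direction, Bub1b, of the spindle checkpoint, was at 74.7, 84.7, 60.7, 17.2 and 114 CPM against 16.2, 16.6 and 25.1 CPM (log2 1.86 ± 0.92). Aurka, the kinase of spindle poles, was at 12.7 to 61.2 CPM against 8.25 to 12.8 CPM (log2 1.59 ± 0.98). Fast replicate 4 alone kept Bub1b from separating the gates. Mcm5, of the replicative helicase, and Rpa2, which binds single-stranded DNA, were both highest in fast replicate 4, at 3688 and 492 CPM, and their log2 fold changes of 2.22 and 3.12 were 0.42 and 1.45 without it. Gins4, another helicase partner, was at 162 CPM in fast replicate 5 and at 0 to 7.63 CPM in the others.

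Inhibitors of the cycle gave no direction either. The list of Cdk inhibitors and quiescence genes had 7 fold changes above 0 and 7 below among 14 tested, with a median of -0.03. Cdkn1a, the p53 target p21, was at 284, 415, 796, 3838 and 279 CPM in fast and at 802, 1311 and 587 CPM in slow GMP. The log2 fold change of 0.32 ± 0.94 became -1.02 without fast replicate 4, which held 3838 CPM. Cdkn1b, p27, was at 1.27 to 18.5 CPM against 1.42 to 16.9 CPM (log2 -0.39 ± 1.34, and 1.26 without slow replicate 3), and Cdkn1c, p57, was too low to be tested, at 0 to 0.559 CPM. Trp53 was at 60.0 to 262 CPM against 137 to 528 CPM (log2 -0.90 ± 0.75, -0.30 without slow replicate 3). The 17 tested p53 targets had 8 above 0 and 9 below, and their median of -0.01 was 0.07 with upper-quartile factors. Among 22 tested G1 cyclin and E2f genes the median was 0.06, with 12 above 0. Ccne1, cyclin E1, was at 3.00 to 375 CPM against 57.4 to 83.4 CPM (log2 1.10 ± 1.11, 0.35 without fast replicate 2). Cdk2 was at 232 CPM in slow replicate 1 and at 12.7 to 43.6 CPM in the others, so its log2 fold change of -1.98 ± 1.0 became 0.28 without that library.

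Glycolysis genes had 19 of 23 fold changes above 0, against 53.1% of all genes, and a median of 0.96, which stayed between 0.55 and 1.17 with each library left out. None passed the threshold, and 3 of 23 had an unadjusted p under 0.05 in that direction, against 3.6% of all genes. Their summed level was 6644, 9643, 24829, 30732 and 40287 CPM in fast and 21043, 9964 and 7504 CPM in slow GMP, so fast replicates 3 to 5 were above all slow libraries and fast replicate 1 below all. Within each gate this order was the reverse of that of the number of genes with a count. The part of this in the fold changes was not tested. Slc16a3, the lactate exporter, was at 37.2, 1.68, 334, 161 and 1157 CPM in fast and at 2.27, 25.8 and 1.08 CPM in slow GMP (log2 5.11 ± 1.89, unadjusted p = 0.0187, adjusted p = 0.662 in edgeR). Pfkp, the platelet-type phosphofructokinase, was at 25.2, 28.0, 203, 360 and 2259 CPM against 20.7, 105 and 52.4 CPM (log2 3.27 ± 1.48, 1.38 without fast replicate 5). Eno1 was at 0 to 21.3 CPM against 0 to 0.691 CPM, and since this gene has near-identical copies, its value is uncertain.

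Cytosolic ribosomal proteins had 30 of 39 fold changes above 0 and a median of 0.53, between 0.33 and 0.70 with each library left out. The median was 0.12 with the replicate number as a block. Their summed level was 19330, 38671, 60297, 74158 and 78584 CPM in fast and 65560, 27061 and 24411 CPM in slow GMP. Fast replicate 1 was below all slow libraries, and slow replicate 1 was above fast replicates 1 to 3. Within each gate the order was again the reverse of that of the number of genes with a count. Rps18 was at 439, 821, 1719, 1658 and 4469 CPM in fast and at 374, 512 and 428 CPM in slow GMP (log2 2.05 ± 0.82, unadjusted p = 0.0278, adjusted p = 0.662 in edgeR). Rpl27 did not overlap, at 317 to 919 CPM against 251, 282 and 100 CPM (log2 1.39 ± 0.73). Rps3 was at 22675 CPM in slow replicate 1 and at 520 to 2319 CPM in the others, and its log2 fold change of -2.23 ± 0.89 became 0.34 without that library. Ribosomal protein genes have many near-identical processed copies, so these counts are uncertain. Oxidative phosphorylation genes had 22 of 37 above 0 and a median of 0.30. Beside Ndufa2, Ndufv1 of complex I stood at 175 to 1924 CPM against 48.9 to 360 CPM (log2 2.05 ± 0.93) and Sdha of complex II at 26.9 to 86.4 CPM against 644, 95.8 and 43.1 CPM (log2 -2.04 ± 0.93, and -0.12 without slow replicate 1). Nucleolar genes had 18 of 34 above 0 and a median of 0.11 (-0.19 without fast replicate 4). Nop14, of the small-subunit processome, was at 900 CPM in fast replicate 5 and at 19.4 to 253 CPM in the others.

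Endoplasmic reticulum chaperones had 9 of 24 fold changes above 0 and a median of -0.13 (0.22 without slow replicate 1), with Sdf2l1 at 103, 185, 1559, 1396 and 1077 CPM against 201, 319 and 144 CPM (log2 1.96 ± 0.97). Interferon response genes had 5 of 14 above 0 and a median of -0.66, which was 0.11 without slow replicate 1. Igtp, an interferon-induced GTPase, stood at 252 CPM in that library, at 0.636 to 5.92 CPM in fast GMP and at 2.30 and 12.9 CPM in the other slow ones (log2 -4.69 ± 1.35, and -1.10 without it). Bst2, tetherin, did not overlap, at 0 to 4.48 CPM against 20.2, 6.91 and 18.3 CPM (log2 -2.40 ± 1.23). Immediate early genes had 12 of 18 above 0 and a median of 0.87, between 0.52 and 1.12 with each library left out. Atf3, a stress-induced factor, was at 13.4, 5.04, 227, 40.7 and 11.4 CPM in fast and at 0, 3.69 and 0.718 CPM in slow GMP, without overlap (log2 5.28 ± 1.81, 3.52 without fast replicate 3, unadjusted p = 0.0128, adjusted p = 0.662 in edgeR). Jun was at 857 CPM in fast replicate 4 and at 4.83 to 51.2 CPM in the others, and Fosl2 at 246 CPM in slow replicate 3 and at 4.95 to 30.0 CPM in the others (log2 3.21 and -2.55, or 0.77 and 0.35 without those libraries). Over the 29 lists, the median of 21 changed sign when some single library was left out, and the median of 8 did not.

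**Figure D4:**
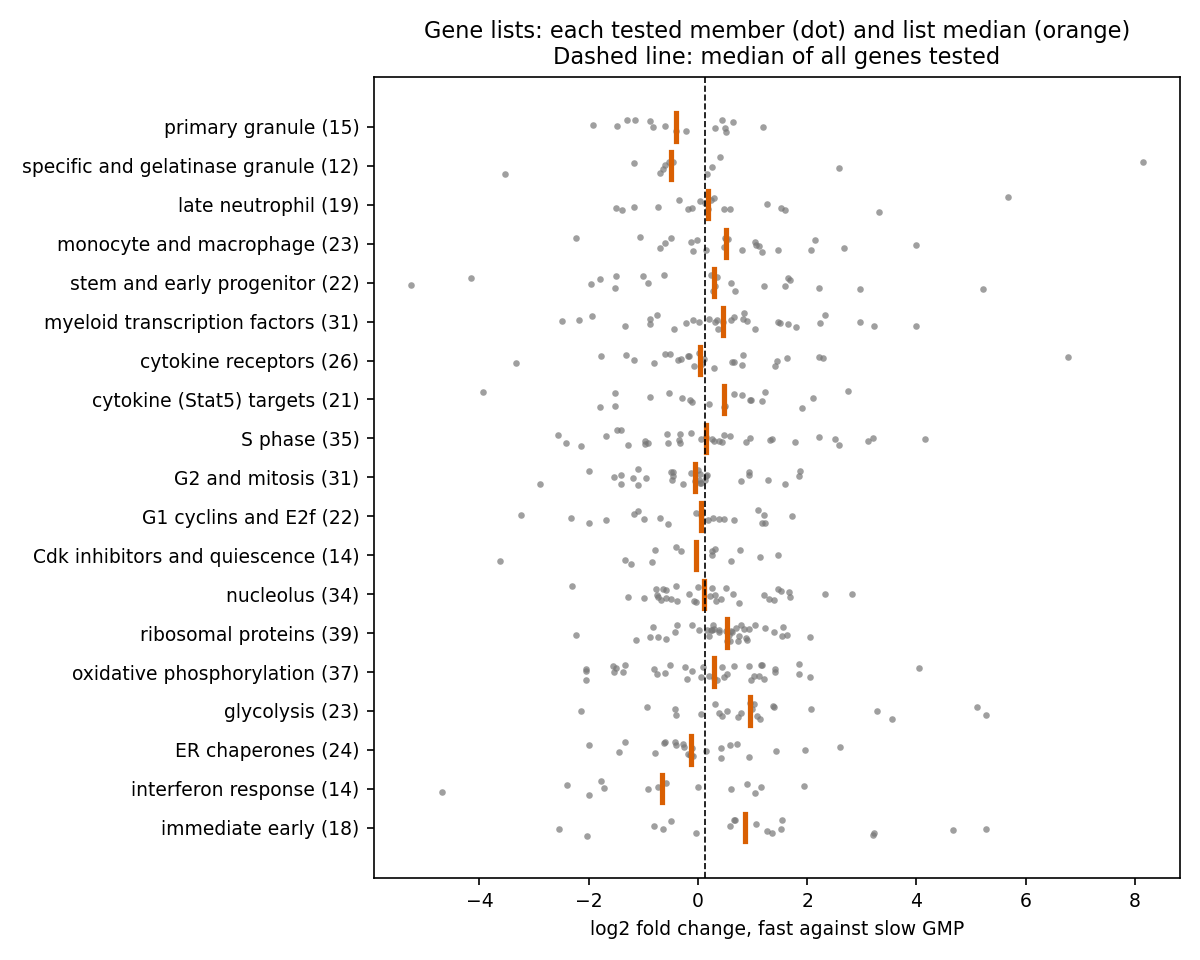
Grey dots give the log2 fold change of fast against slow GMP for each tested member of 19 gene lists (number tested in brackets), orange bars the median of each list, and the dashed line the median of all genes tested, 0.12. Every list shown has members on both sides of 0, and the glycolysis (0.96) and immediate early (0.87) medians lie farthest to the right.

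Markers of other cell types were checked because the gate could hold other cells. The globin genes Hba-a1, Hba-a2, Hbb-b1 and Hbb-b2, which mark erythroid cells, were listed at 0 in all 8 libraries, while the other 16 of 20 erythroid genes had counts. The erythroid sum was 742 CPM in fast replicate 5, 620 CPM in slow replicate 1 and 92.0 to 181 CPM in the other 6 libraries. Also at 0 throughout were the tryptase gene Tpsb2 of mast cells and the lymphoid genes Cd2 and Ncr1. The globin genes and Tpsb2 have near-identical copies, and how reads matching several genes were counted is not given. Their 0 counts therefore need not mean absence of the transcripts. Only 2 of 20 lymphoid, 3 of 14 megakaryocytic, 6 of 20 erythroid and 8 of 22 mast cell, basophil and eosinophil genes had enough counts to be tested. The megakaryocytic sum was 115, 31.9, 7.40, 25.1 and 232 CPM in fast and 10.2, 9.90 and 21.5 CPM in slow GMP. Itga2b, the platelet integrin CD41, made up most of the sum of fast replicates 1 and 5, at 66.2, 0, 0.987, 19.4 and 214 CPM in fast and at 0, 0.461 and 0 CPM in slow GMP (log2 8.17 ± 2.55, unadjusted p = 0.00739, adjusted p = 0.662 in edgeR, with overlap). Fast replicate 5 was thus highest in Itga2b as well as in Tal1, Kit and Myb; the part of other cells in that result was not tested. Mcpt8, a protease of basophils, was at 143 CPM in fast replicate 4, at 21.6 and 26.0 CPM in slow replicates 1 and 2 and at 0 to 2.80 CPM elsewhere. Cpa3, of mast cells, was at 0 to 4.80 CPM in fast and at 19.3, 2.53 and 11.8 CPM in slow GMP. Cd79b, of B cells, was at 54.2 CPM in fast replicate 1 and at 0 to 5.11 CPM in the others, and its log2 fold change of 1.87 became -1.16 without that library.

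Fibroblast genes summed to 239 to 476 CPM in fast and 131 to 751 CPM in slow GMP, with Lum listed at 0 throughout and a median log2 fold change of 0.10 over 13 tested members (-0.11 without fast replicate 5). Thy1 was at 81.5, 185, 18.5, 9.23 and 108 CPM in fast and at 9.37, 2.76 and 9.69 CPM in slow GMP (log2 3.46 ± 1.23, unadjusted p = 0.0151). Fn1, fibronectin, did not overlap, at 22.2, 9.51, 18.8, 8.91 and 142 CPM against 2.56, 3.46 and 7.89 CPM (log2 3.11 ± 1.30, 1.68 without fast replicate 5, unadjusted p = 0.0335). Both had an adjusted p of 0.662 (edgeR). Sparc, a matrix protein, went against them through slow replicate 3 alone, at 469 CPM there and 28.6 to 63.6 CPM elsewhere, and its log2 fold change of -1.79 became 0.36 without it. Trim71, a gene of pluripotent and germ cells, had 5.66, 6.15, 5.18, 4.77 and 0 CPM in fast and 0 counts in every slow library, which made its 82 fast counts at least 17.4-fold higher against a floor of 3 counts over the slow group. Of 18 pluripotency genes 4 were tested, with a median of 0.27 that was -0.09 without Rn45s and Lars2 and -0.13 without fast replicate 3. Krt14, keratin 14, stood at 1.97 to 16.2 CPM in fast and 3.46 to 8.25 CPM in slow GMP.

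Single libraries dominated many of the extreme values. Myef2, a repressor of the myelin basic protein gene, stood at 13234 CPM in fast replicate 2 and at 5.53 CPM or less in the other 7 libraries, and Dapp1, a signalling adaptor of lymphocytes, at 1152 CPM in the same library and 3.21 to 23.9 CPM elsewhere. Its log2 fold change of 4.29 became -0.12 without that library. Such genes were not rare among those that other tools called: 69 of the 97 calls of DESeq2 (71.1%) and 280 of the 385 of the fit with all libraries (72.7%) had over 50% of their summed CPM in 1 library, against 29.4% of all genes tested. Of these 385 genes, 307 were tested in the main fit, so the 72.7% and the 29.4% cover different sets of genes. Among the 16 genes named from the whole table, 10 had over 50% of their summed CPM in 1 library.

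The same dye gate had been applied to MEF, so the gate effect of GMP was tested against that of MEF over 16 libraries. In MEF, 6 of 36 S phase genes and 6 of 32 genes of G2 and mitosis passed the threshold as higher in the fast gate and 0 as lower, against 1.39% and 2.24% of all genes in that fit, with median log2 fold changes of 2.21 and 2.33, while the GMP medians in the same fit were 0.10 and -0.12. The difference, the GMP effect minus the MEF effect, was below 0 for 32 of the 36 and for all 32 genes, against 6218 of the 13814 genes tested over all. It passed the threshold for 2 S phase genes, Mcm10 and Rrm2, and for 1 gene of G2 and mitosis, Aurkb, and 15 and 18 genes had an unadjusted p under 0.05. Over all genes, 110 effects were more positive (0.796%) and 83 more negative (0.601%) in GMP, with 20.1% of genes at an unadjusted p under 0.05 (edgeR, interaction term). The 2 comparisons also differed in cell type, medium, factor induction and hours of dye dilution, and their parts cannot be told apart. One spread was fitted to both cell types, although it was wider in GMP.

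Aurkb had a log2 fold change of -2.95 ± 0.75 in GMP and of 2.62 ± 0.77 in MEF in this fit (difference -5.57 ± 1.08, adjusted p = 0.0148). Mcm10 had -2.61 ± 0.94 in GMP and 4.90 ± 1.09 in MEF (difference -7.51 ± 1.42, adjusted p = 0.0125). Rrm2, the other subunit of ribonucleotide reductase, had -1.57 ± 0.56 and 2.08 ± 0.58 (difference -3.65 ± 0.81, adjusted p = 0.0305, and 0.0523 without slow GMP replicate 1). Mki67 had 0.00 ± 0.64 and 2.69 ± 0.65 (difference -2.69 ± 0.88, adjusted p = 0.101) and did not pass. Fibroblast genes had a median of -4.36 in MEF, where 18 of 20 fell in the fast gate against 2.24% of all genes, and of -0.04 in GMP, and 10 of 20 differences passed, all more positive in GMP. Thy1 had 3.40 ± 0.84 in GMP and -3.62 ± 0.75 in MEF, and Fn1 had 3.01 ± 0.87 and -4.60 ± 0.84, each with an adjusted p of 0.00762 for the difference. Chd3 (4.76 ± 0.90 against -2.22 ± 0.71, adjusted p = 0.00762) and Pik3r2 (5.51 ± 1.0 against -0.92 ± 0.71, adjusted p = 0.0113) also differed. Both had been named for their small p between the GMP gates, so these calls reuse the values that chose them. Krt14 rose in fast MEF, by 5.30 ± 0.77, and had 0.56 ± 0.71 in GMP (difference adjusted p = 0.0204). Aurkb, Mcm10, Thy1, Fn1 and Krt14 had been named for their p between the GMP gates within a list, so their calls also reuse such values. Aurkb, Mcm10, Thy1, Fn1, Chd3, Pik3r2 and Krt14 passed with each of the 8 GMP libraries left out in turn. With the replicate number as a block, only Fn1 of these 7 passed (adjusted p = 0.0271), and the others had adjusted p-values from 0.0526 (Chd3) to 0.103 (Aurkb). The count of differences depended on single libraries. Without fast GMP replicate 1 it was 255 more positive and 320 more negative, and without slow replicates 1, 2 and 3 it was 49 and 66, 68 and 88, and 61 and 109.

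**Figure D5:**
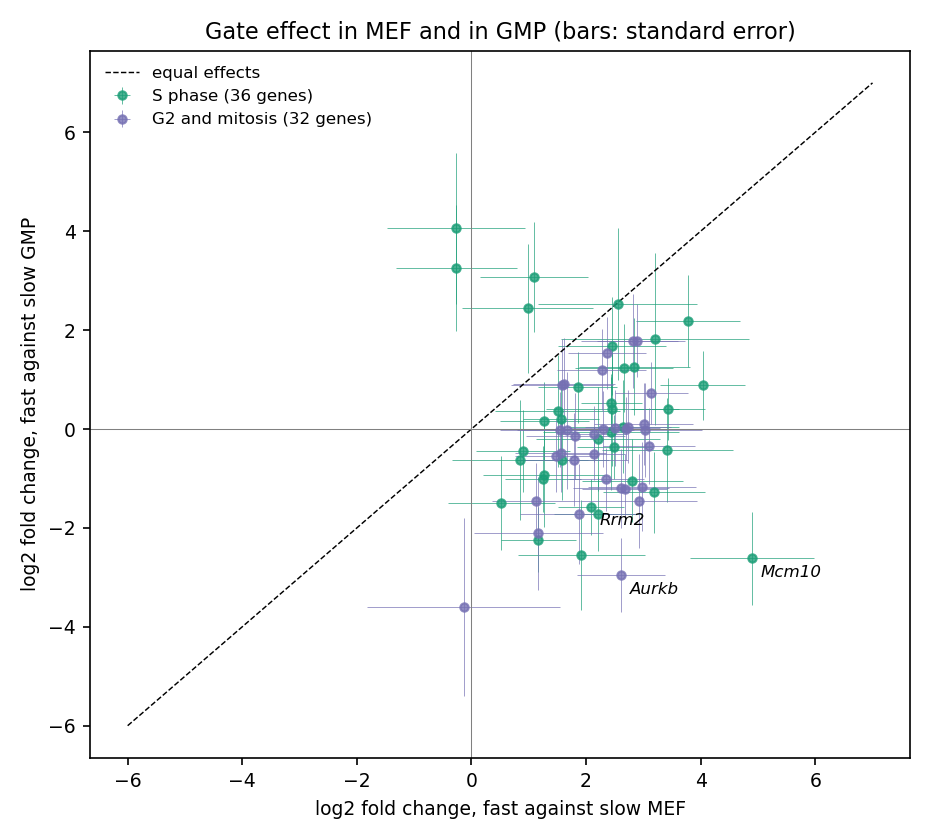
Each point is a gene of S phase (green, 36 genes) or of G2 and mitosis (purple, 32 genes), with its log2 fold change of fast against slow MEF on the x axis and of fast against slow GMP on the y axis, both from the fit over 16 libraries, and bars of 1 standard error. Of the S phase genes 34, and of those of G2 and mitosis 31, lie right of 0; 32 of each list lie below the dashed line of equal effects; and the 3 labelled genes are those whose difference passed the threshold.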

How the data were processed

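RNA counts of 5 fast and 3 slow cycling GMP libraries were compared. The authors deposited a table of raw whole-number counts, 23283 gene symbols by 24 libraries. The submitters' processing notes name the build mm9 and the tools HTSeq, TopHat2 2.0.4 and CASAVA 1.8.2. For settings, annotation and strand, the entry is: not given in the sources used here. Antisense, overlapping or near-identical genes may therefore share or lose reads. None of the pairs of GMP libraries within a gate held identical values, and the chi-square of their counts per degree of freedom was 115.2 or more. No library was thus a copy of another of its gate, and each was treated as 1 sample. Whether they were separate biological samples cannot be told from this.

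Only the GMP libraries entered the main comparison: edgeR 4.0.16 in R 4.3.3, quasi-likelihood F test with robust fit, TMM factors and filterByExpr, two-sided, Benjamini-Hochberg adjustment over the 10057 genes tested, threshold 0.05, no block. Standard errors and intervals came from this fit. CPM values in the text are scaled by its TMM factors, with SDs not shown where every library is given. The gate effect was compared with that of MEF by an interaction term over 16 libraries. Library measures were compared by exact permutation over the 56 arrangements (scipy 1.17.1). A gene at 0 counts in a gate was given a floor of 3 counts over that gate. Floors cover counting error only, since PCR reads without molecular identifiers are not independent molecules.

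The 29 gene lists, with 703 different members, and the choice of this comparison were made with earlier results of these data known. Of the members 699 matched a symbol of the file, 2 a synonym, and Ly6g and Noc2l neither, and 519 were tested. Genes were named by a rule: the 8 genes of smallest p on each side among those with gates that did not overlap and at least 20 CPM in the higher gate, since none passed; up to 4 members of a list in the direction of its median and 2 in the other; a fixed set of myeloid, cell cycle and ribosomal genes; and genes dominated by 1 library. Rrm2 was chosen after its values were seen. Not every gene of the rule is described, and 1 is not reported here. The comparison was repeated with DESeq2 1.42.0, with limma 3.58.1 voom and quality weights, and in edgeR with upper-quartile or DESeq2 factors, without a filter, with at least 20 counts asked in 5 libraries, without robust fitting, blocked by replicate number, over all 24 libraries, on thinned counts, without Rn45s and Lars2, and without each library in turn. The fits were tested on simulated data. Tables and plots used pandas 2.3.3, numpy 2.4.6 and matplotlib 3.10.9. No coordinates or sequences are given, since no result turns on one.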

Additional observations from a re-analysis of the deposited data

Results flagged for a closer look

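Among the 5 fast GMP libraries, single libraries lay farther from the rest than replicate spread usually allows (Dixon's criterion, on log2(CPM + 1) for genes), which chance alone gives in about 1 of 20 groups. The criterion was applied to the library measures and to each tested gene that the naming rule gave and the text describes. With so many genes examined, several such flags would be expected by chance alone. Fast replicate 2 had 48.9% of its counts in Rn45s and Lars2 and 54.4% in its 10 most abundant genes, and it stood apart in Myef2 (13234 CPM), Cdk2 (43.6 CPM) and Cdkn1b (18.5 CPM). Myef2 had been named because this library dominates it, so its distance restates that choice. Fast replicate 1 stood apart in Ltf (10.1 CPM) and Pnldc1 (1.41 CPM), and fast replicate 3 in S100a8, on the low side (1.73 CPM). Pnldc1 was at 0 CPM in every other fast library, so any count in fast replicate 1 would have been flagged. Fast replicate 4 was high in Jun (857 CPM), Mcpt8 (143 CPM) and Ngp (83.7 CPM). Fast replicate 5 was high in Padi4 (166 CPM) and Gins4 (162 CPM) and low in Mcm10 (3.00 CPM) and Trim71 (0 CPM).

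The gate effect differed between GMP and MEF by the interaction test for 110 genes in one direction and 83 in the other. Values below are the GMP effect minus the MEF effect on the log2 scale with edgeR's adjusted p. More positive in GMP were Fn1 (7.62), Thy1 (7.02), Chd3 (6.98) and Pik3r2 (6.43), with adjusted p-values of 0.00762 for the first 3 and 0.0113 for Pik3r2. Tgfbr2 had 9.45 (0.0405), Abcd4 8.92 (0.0224), Slc16a3 8.58 (0.0418), Stx18 7.22 (0.0444), Ndufa2 4.82 (0.0321), Rai12 4.04 (0.0476) and Ccnd2 3.48 (0.0380), and each of these lost the call with at least 1 GMP library left out. More negative in GMP were Mcm10 (-7.51, 0.0125), Aurkb (-5.57, 0.0148), Krt14 (-4.74, 0.0204), Fbxo22 (-4.71, 0.0296), Rrm2 (-3.65, 0.0305) and Pnldc1 (-11.27, 0.0421). Fbxo22, Rrm2 and Pnldc1 lost the call without slow replicate 1. Pnldc1 also lost it without fast replicate 2, 3, 4 or 5. Chd3, Pik3r2, Abcd4, Stx18, Ndufa2, Rai12, Fbxo22 and Pnldc1 had been named for a small p between the GMP gates. The others but Rrm2 had been named for their p within a list, so these calls reuse the values that chose the genes.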

How the results depend on the processing

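The count of 0 genes in each direction held under other factors, filters, voom, no robust fit, thinning, no Rn45s and Lars2, the replicate block and each library left out, but DESeq2 called 72 higher and 25 lower and the fit with all 24 libraries 173 and 212. Genes at an unadjusted p under 0.05, 362 higher and 380 lower, numbered 932 and 1100 without a filter, 231 and 254 with the stricter filter, 625 and 387 by DESeq2, 141 and 241 by voom, and 1964 and 1505 in the fit with all libraries. With a library left out they numbered 271 to 431 and 281 to 502. On counts thinned to the smallest library, 8507 genes were tested and the numbers were 316 and 339. Deviations of same-numbered GMP libraries from the mean of their gate correlated at 0.002, 0.044 and -0.052. So few pairs cannot show whether same-numbered libraries were handled together. Slow and fast replicate 2 had the largest shares of Rn45s and Lars2, 40.6% and 48.9%, against 19.9% to 25.6% in the other GMP libraries. With the replicate block the unadjusted counts were 189 and 62, the list medians were 0.13 for glycolysis, 0.12 for ribosomal proteins, 0.10 for monocyte genes, 0.098 for myeloid factors and -0.021 for oxidative phosphorylation, and the differences between GMP and MEF numbered 14 and 1. Those differences numbered 49 to 255 and 66 to 320 with a GMP library left out. The gate difference in the share of Rn45s alone was 2.23 percentage points.

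Signs of log2 fold changes turned for these genes. With the replicate block, Mpo had -0.39, Prtn3 -0.062, Ctsg -0.45, Padi4 -1.24, Csf3r 0.28, H2-Aa 0.0077, Il3ra -0.022, Cdkn1a -0.93, Cdkn1b 0.22, Mcpt8 -3.25, Cd79b -2.41, Krt14 -0.092 and Dapp1 -0.18. With voom, Padi4 had -0.51, H2-Aa 0.013, Kit -0.077, Cdkn1a -0.60, Mcpt8 -1.78 and Cd79b -1.58. Mki67 had -0.0052 with upper-quartile factors, -0.017 with the stricter filter and -0.019 with thinned counts. With a library left out, values ran from -2.07 to 0.80 for Cd34, -1.16 to 2.27 for Cd79b, -2.48 to 0.28 for Cdk2, -1.02 to 0.75 for Cdkn1a, -1.75 to 1.26 for Cdkn1b, -1.73 to 0.59 for Csf3r, -0.11 to 1.19 for Ctsg, -1.56 to 0.074 for Cyba, -0.12 to 4.59 for Dapp1, -3.02 to 0.35 for Fosl2, -1.43 to 0.87 for H2-Aa, -0.10 to 2.99 for Kit, -4.12 to 0.079 for Ltf, -0.38 to 1.07 for Mki67, -0.038 to 1.16 for Myc, -0.49 to 3.78 for Padi4, -2.79 to 0.34 for Rps3 and -2.26 to 0.36 for Sparc. The cause was not tested.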
